A study of Sus scrofa with 12 samples.

Results

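Complement genes were followed in the uterus of newborn pigs: the C1q chains C1QA, C1QB and C1QC, the proteases C1R and C1S, the components C3 and CFB, and the inhibitors SERPING1 and CD59. The list takes by name some components and inhibitors of the classical and alternative pathways, and CD59, which acts on the final step. It leaves out C2, C4A, CFD and CFP, which are counted among the other complement genes below. Rows were found by symbol or, for placeholder symbols, by the NCBI gene name or the description. Of the 9 genes listed, 7 had a row among the 20390 rows, all typed as protein coding, of the deposited table, and C1R and C1S are not analysed here. All 7 passed the filter on low values. The samples were uteri of crossbred gilts (young female pigs) from Landrace, Yorkshire, Duroc and Hampshire stock, with 4 animals and 1 library per animal in each of 3 groups. PND0 gilts were killed within 1 h of birth without nursing. PND2N gilts had nursed for 48 h and PND2R gilts had been fed a commercial milk replacer for 48 h, and both were killed at 50 h of age. The whole uterus, trimmed of connective tissue, was used, so every value is an average over its cell types. The labels name no litter, and both day 2 groups are compared with the same 4 newborn libraries.

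Complement is a chain of plasma and tissue proteins that tags microbes, antibody complexes and dying cells for removal. C1q binds the target and activates the proteases C1r and C1s, which starts the classical pathway, while factor B (CFB) drives the alternative pathway, and both lead to cleavage of C3. The C1 inhibitor encoded by SERPING1 blocks C1r and C1s, and CD59 on cell membranes stops the final pore from forming. Most complement proteins of the blood come from the liver, whereas C1q is made mainly by macrophages and dendritic cells. Complement genes are also active in the uterus, where C3 is known as an estrogen-responsive gene of the epithelium.

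Levels are normalized values on a linear scale with 1 as the lowest value. Whether they were divided by transcript length is not given in the sources used here. Tests compare levels between libraries, and levels of different genes set beside each other are descriptions only. Library totals ran from 26534074 to 29544130, and 17.8% to 22.1% of rows lay at the lowest value. Changes are differences of log2(value + 1), given ± SE. The call rule is an adjusted p under 0.05 from limma, with Benjamini-Hochberg adjustment over 16862 genes tested. The uterine homeobox gene HOXA10 was present in every library, at 3468 to 8409. The libraries PND2N 1, PND2R 2 and PND2R 3 stood apart with high DES, a muscle intermediate filament gene (29022 to 40049, against 7460.1 to 23439.7 in the other 9), and results are also given without them. They also had the highest totals (28354031 to 29544130) and the largest shares at the lowest value (21.3% to 22.1%). The endothelial gene VWF (24.2 to 90.2) and the fibroblast gene COL1A2 (564 to 890) were lowest in them. KDR, also endothelial, and DCN, also of fibroblasts, overlapped with the other libraries. What sets these libraries apart was not tested. The newborn libraries differed in epithelial marker levels: the summed level of 6 epithelial markers reached 93500.2 in PND0 1 and 99513 in PND0 2, and stood lower, at 26992, in PND0 3 and at 20919.6 in PND0 4.

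With the day 2 groups pooled, 6 of the 7 complement genes rose after birth and none fell. Among all genes tested, 9.57% rose in that comparison. The genes that rose were C1QA, C1QB, C1QC, C3, SERPING1 and CD59, and the median log2 change of the 7 was 0.99, against -0.05 over all genes tested. Nursed gilts alone gave 4 rises over birth (C1QB, C1QC, SERPING1 and CD59), where 1.91% of all genes rose, with a median of 0.93 for the 7 members and -0.04 for all genes. Replacer-fed gilts alone also gave 4 (C1QB, C1QC, SERPING1 and C3), where 7.70% of all genes rose, with medians of 1.02 and -0.06. None of the 7 fell in either comparison, where 1.41% and 7.31% of all genes fell. All 4 values of a group lay above all 4 newborn values for 5 of the 7 genes in nursed gilts (8.14% of all genes) and for 3 of the 7 in replacer-fed gilts (12.7%), and 3 of the 7 did so for all 8 day 2 libraries (6.67%). Without the 3 libraries of high DES the members with an adjusted p under 0.05 numbered 3 for the day 2 groups together, 1 for nursed gilts and 0 for replacer-fed gilts. Rises were fewer among all genes too, at 3.78%, 0.756% and 0.702% of those tested in that fit. The 3 genes still called there were C1QB, C1QC and SERPING1.

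**Figure D1:**
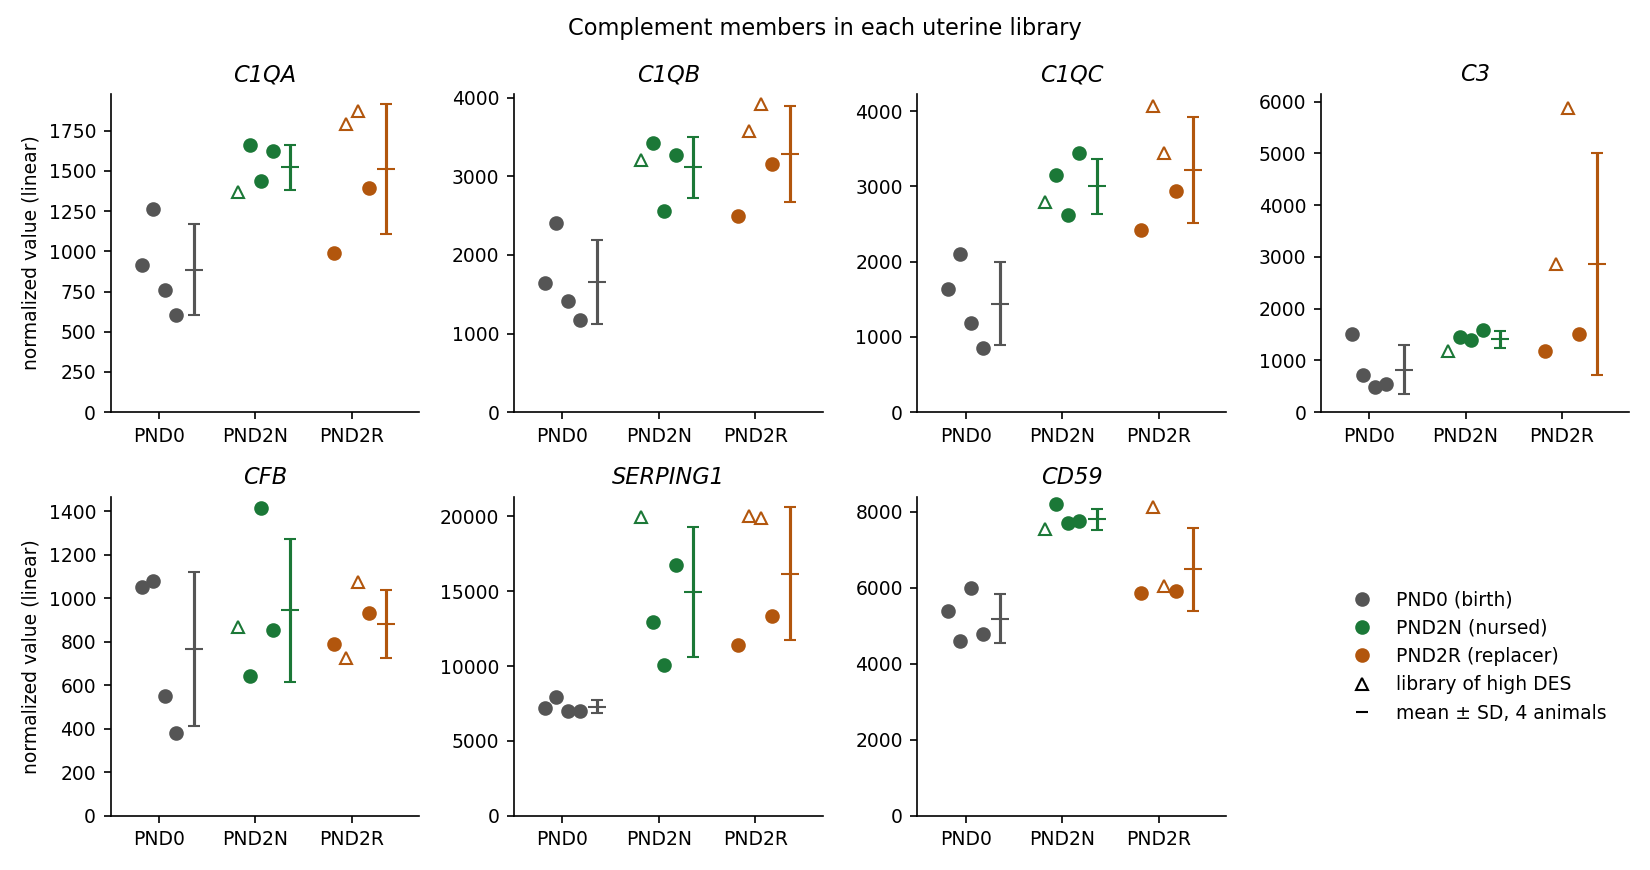
Normalized value (linear axis from 0) of the 7 complement genes in each of the 12 libraries, by group, with the mean ± SD of 4 animals beside the points and open triangles for the 3 libraries of high DES. All day 2 libraries lie above all newborn libraries for C1QB, C1QC and SERPING1, while the groups of CFB overlap.

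The 3 chains of C1q were higher at day 2. C1QB was listed at 1639, 2404, 1416 and 1169.8 in PND0 1 to PND0 4. It stood at 3209, 3428, 2553 and 3275 in the nursed gilts, and at 2492, 3571, 3914 and 3162 in the replacer-fed gilts. The lowest day 2 library, PND2R 1, was thus just above the highest newborn library, PND0 2. The group means were 1657 ± 533, 3116 ± 386 and 3285 ± 612 (SD, n = 4). C1QB rose by 0.95 ± 0.22 in nursed gilts (adjusted p = 0.0414) and by 1.02 ± 0.22 in replacer-fed gilts (adjusted p = 0.0164). Over both day 2 groups the change was 0.99 ± 0.19 (adjusted p = 0.00884), and 5.21% of all genes tested had a larger rise.

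C1QC followed the same order of groups with a slightly larger change. Its newborn values were 1631, 2108, 1184 and 848. The nursed values were 2790.2, 3149, 2615 and 3446 and the replacer values 2415, 4074, 3439 and 2945. Again no day 2 library reached down to the newborn range. Means were 1443 ± 547 at birth, 3000.0 ± 371 with nursing and 3219 ± 707 with replacer. The change was 1.13 ± 0.26 in nursed gilts (adjusted p = 0.0407), 1.21 ± 0.26 in replacer-fed gilts (adjusted p = 0.0160) and 1.17 ± 0.22 over both (adjusted p = 0.00858).

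C1QA, the remaining chain, passed the threshold only with both day 2 groups together. It was 915, 1263, 759.7 and 604 at birth, 1371, 1659.9, 1439 and 1624 with nursing, and 988, 1789, 1870.3 and 1395 with replacer. The nursed libraries all lay above the newborn ones, whereas PND2R 1 fell inside the newborn range. Means were 885 ± 282, 1523 ± 141 and 1511 ± 406. The change was 0.83 ± 0.25 in nursed gilts (adjusted p = 0.0827) and 0.78 ± 0.25 in replacer-fed gilts (adjusted p = 0.0534), and 0.81 ± 0.22 over both (adjusted p = 0.0274). Leaving out the 3 high-DES libraries gave 0.67 for the last value (adjusted p = 0.0855), and that call also ended when PND0 3, PND0 4, PND2N 4, PND2R 2 or PND2R 3 alone was left out. Within the newborn group the 3 chains shared 1 order, with PND0 2 highest, then PND0 1, PND0 3 and PND0 4. The sums of the epithelial markers and of the T and NK cell markers had the same order at birth. The part of these markers in the C1q values was not tested.

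The calls of C1QB and C1QC over both day 2 groups held in all 12 fits that left out a library, with adjusted p of at most 0.0339 and 0.0285. In the single-group comparisons the calls were closer to the threshold. In nursed gilts C1QB was called in 3 of the 12 such fits (without PND0 2, PND2N 3 or PND2R 1) and C1QC in 4 (also without PND2R 2), and in replacer-fed gilts both were called in 10 of 12, the calls ending without PND2R 2 or PND2R 3. The changes kept their sign in all of these fits, between 0.80 and 1.34 in nursed gilts and between 0.87 and 1.42 in replacer-fed gilts for the 2 genes.

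The C1q genes lie side by side on chromosome 6 of Sscrofa10.2, all on the plus strand, within 19826 bases: C1QA from 73496198 to 73499028, C1QC from 73502521 to 73507409 and C1QB from 73511629 to 73516023. The table's interval for EPHA8, an ephrin receptor gene, runs from 73465774 to 73555485 on the same strand and so contains all 3 of them. EPHA8 was also among the 3 genes whose pattern over the 12 libraries was most like the mean of the C1q chains. It was listed at 72.8, 105, 60.7 and 42.2 at birth, at 218, 158, 119.9 and 205 with nursing, and at 121, 303, 250.1 and 207 with replacer. These levels equal 4.23% to 7.91% of the chains' means at birth and 6.71% to 14.6% in replacer-fed gilts. How reads in the shared interval were assigned is not given in the sources used here, so the EPHA8 values and any part of the C1q values exchanged with them are uncertain.

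The proportions of the chains varied between libraries. The log2 ratio of C1QC to C1QB was -0.23 ± 0.19 at birth, -0.05 ± 0.13 with nursing and -0.04 ± 0.16 with replacer, and the groups overlapped. The log2 ratio of C1QA to C1QB was -0.90 ± 0.05, -1.03 ± 0.16 and -1.14 ± 0.15 (SD, n = 4 each). All 4 replacer-fed libraries lay below all 4 newborn ones for this ratio, between -1.33 and -0.997 against -0.95 to -0.84, while the nursed libraries overlapped with both. These ratios are descriptions and were not tested.

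**Figure D2:**
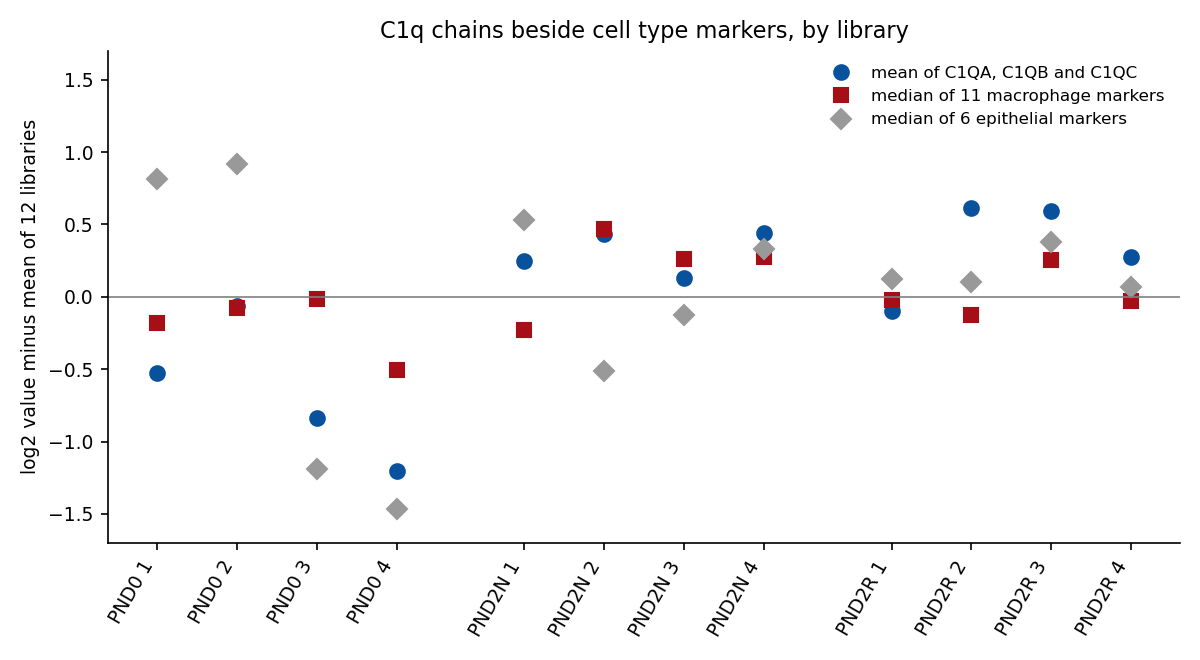
Mean log2 value of the 3 C1q chains, median of 11 macrophage markers and median of 6 epithelial markers in each library, each gene set to 0 at its mean over the 12 libraries. The C1q chains are lowest in PND0 4 (-1.20) and highest in PND2R 2 (0.61), and the macrophage median stays between -0.50 and 0.47.

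C1q is a macrophage product, and markers of these cells moved in part with it. In bulk tissue, more cells of a type and more RNA per cell cannot be told apart. The summed level of the 12 macrophage rows with the C1q chains left out was 5054 to 6404 at birth, 6827 to 8826 with nursing and 6726 to 8475 with replacer. The day 2 sums thus lay above the newborn ones, with 53.5% to 74.3% of the sum coming from LAPTM5 and LYZ. The median of the 11 tested markers, each set to 0 at its mean over all libraries, overlapped between groups: it was -0.50 to -0.02 at birth, -0.23 to 0.47 with nursing and -0.13 to 0.25 with replacer. Of these 11, 3 rose over both day 2 groups, where 9.57% of all genes rose. None fell by the call rule, where 8.49% of all genes fell. Their median log2 change was 0.31, and 7 of the 11 changes were positive (47.2% of all genes).

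The rising markers were AIF1, an actin-binding protein of macrophages (1.11 ± 0.29), LAPTM5, a lysosomal protein of leukocytes (0.69 ± 0.16), and LYZ, the lysozyme gene (0.89 ± 0.26). CSF1R, the receptor for macrophage colony-stimulating factor, was 912 ± 299 at birth, 711 ± 125 with nursing and 548 ± 63.8 with replacer and did not pass (adjusted p = 0.0823 over both). ITGAM, also a listed complement receptor, was 204 ± 49.7, 123 ± 101 and 68.3 ± 51.6. Its change over both was -1.56 ± 0.63 (adjusted p = 0.0961). The changes of CD14 and MRC1 over both were negative too, at -0.63 and -0.17. CD14 was near the lowest value throughout (1 to 9.79), and FCER1G was listed at 1 in every library. CD68 and CD163 are not analysed here. Relative to the median of the macrophage markers, the C1q chains were at -0.46 ± 0.38 on the log2 scale at birth, 0.12 ± 0.27 with nursing and 0.33 ± 0.33 with replacer, and the groups overlapped. The part of these markers in the C1q change was not tested. Of the markers of other leukocytes, 1 of 6 neutrophil rows rose over both day 2 groups, and 0 of 5 T and NK cell rows and 0 of 4 B cell rows were called. Among all genes 9.57% rose and 8.49% fell, so 0 calls among so few rows do not show these cells to be unchanged.

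C3, the component on which all pathways converge, rose in replacer-fed gilts and over both day 2 groups, with a wide spread. Its values were 1515, 723, 494 and 537 at birth and 1187, 1460.2, 1391 and 1581 with nursing. In the replacer-fed gilts they were 1189, 2858, 5878 and 1519. The high values belonged to PND2R 2 and PND2R 3, while the other 2 replacer-fed libraries were within the nursed range, and PND0 1 was inside the day 2 range.

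Group means of C3 were 817 ± 476, 1405 ± 165 and 2861 ± 2137. The change was 1.68 ± 0.46 in replacer-fed gilts (adjusted p = 0.0341), 0.93 ± 0.46 in nursed gilts (adjusted p = 0.241) and 1.30 ± 0.40 over both (adjusted p = 0.0436). When the 3 high-DES libraries were left out, C3 changed by 0.87 in replacer-fed gilts (adjusted p = 0.230) and 0.94 over both (adjusted p = 0.0805). The replacer call also ended without PND0 2, PND0 3, PND0 4, PND2R 2 or PND2R 3 alone, and the call over both groups held in 4 of 12 such fits, those without PND0 1, PND2N 3, PND2R 1 or PND2R 4. The table's C3 interval (chromosome 2, 59296046 to 59303442) spans 7397 bases. A further row, described as C3-like (chromosome 2, 63001018 to 63032525), was far lower at 27.2 ± 22.5, 12.01 ± 4.88 and 6.39 ± 6.37, and reads could be split between such copies, so the C3 values are uncertain.

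CFB, the protease of the alternative pathway, gave no call in any comparison. It was 1052, 1081, 552 and 379 at birth, 868, 643, 1414 and 856 with nursing, and 788, 727, 1074 and 933 with replacer. The lowest values, in PND0 3 and PND0 4, were newborn ones and the highest was PND2N 3, and the groups overlapped. The higher newborn pair, PND0 1 and PND0 2, was also the pair of high epithelial markers. C3 and the C1q chains were higher in that newborn pair as well. The part of the epithelial markers in the CFB values was not tested. Means were 766 ± 354, 945 ± 329 and 881 ± 155. The change over both day 2 groups was 0.35 ± 0.30 (95% interval -0.30 to 1.00, adjusted p = 0.404), so a rise of up to 1.00 on the log2 scale was not shown to be absent.

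CFB starts 386 bases after the end of C2, its neighbour on chromosome 7 (CFB from 27941837 to 27947932) and the matching protease of the classical pathway. C2 stood at 127 ± 36.9 at birth, 169.7 ± 78.8 with nursing and 226 ± 109 with replacer and did not pass either (adjusted p = 0.303 over both). C2 is named here for its position.

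SERPING1, which encodes the C1 inhibitor, rose in both feeding groups. The newborn libraries were close together at 7207, 7908, 6999.7 and 6997. The nursed libraries were at 19966, 12942, 10100.1 and 16778 and the replacer-fed libraries at 11422, 20011, 19894 and 13312. Every day 2 library was above every newborn one, and the 3 highest values were those of the libraries of high DES. The coefficient of variation was 5.93% at birth, 28.9% with nursing and 27.5% with replacer.

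Means of SERPING1 were 7278 ± 431, 14946 ± 4323 and 16160.1 ± 4447. It rose by 0.99 ± 0.23 in nursed gilts (adjusted p = 0.0425), by 1.11 ± 0.23 in replacer-fed gilts (adjusted p = 0.0142) and by 1.05 ± 0.20 over both (adjusted p = 0.00836). The call over both held in all 12 fits that left out a library, and the replacer call in 10, ending without PND2R 2 or PND2R 3. The nursed call held in 3 of 12, those without PND2N 3, PND2R 1 or PND2R 3. Without the 3 libraries of high DES the changes were 0.84 in nursed gilts (adjusted p = 0.0476), 0.76 in replacer-fed gilts (adjusted p = 0.0789) and 0.80 over both (adjusted p = 0.0202).

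Among the day 2 libraries, SERPING1 moved with smooth muscle markers, but this was not particular to them. The liver, B cell and neutrophil sums were also highest in PND2N 1, PND2R 2, PND2R 3 and PND2N 4. For liver these were 9981, 8207, 7860 and 6676, and for B cells 1948, 1527, 1722 and 1552. The sums of the other marker lists did not have these libraries on top. The summed level of 5 smooth muscle rows was 212973, 170326 and 169132 in PND2N 1, PND2R 2 and PND2R 3, and 134922, 108576, 103864, 99082 and 65434 in PND2N 4, PND2R 4, PND2N 2, PND2R 1 and PND2N 3. SERPING1 levels stood in the same order apart from the exchange of PND2N 1 and PND2R 2. At birth the sum was 80745 to 108705, within the day 2 range, and ACTA2 alone stood at 53250 to 71136 of it. All 5 rows had a positive change over both day 2 groups (47.2% of all genes), with a median of 0.65. None of the 5 was called, where 9.57% of all genes rose. The part of the smooth muscle markers in the SERPING1 change was not tested. PND2N 3 had a lower sum than every newborn library and a SERPING1 level above all of them. SERPING1 (chromosome 2, 13162767 to 13206172, minus strand) shares 14304 bases with UBE2L6, a ubiquitin-conjugating enzyme gene on the other strand, whose means were 1198, 2067 and 2127. Whether counting used strand is not given in the sources used here, and reads of the 2 genes in that stretch cannot be told apart without it.

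CD59, which protects cells from the membrane attack complex, rose in nursed gilts. It was 5391, 4594, 5999 and 4779 at birth and 7559, 8210.2, 7709.6 and 7755 with nursing, with a clear gap between the groups. In the replacer-fed gilts 3 libraries lay near the top of the newborn range, at 5871, 6049.6 and 5911, and PND2R 2 was at 8125, as high as the nursed libraries. Means were 5191 ± 637, 7809 ± 281 and 6489 ± 1093. The change was 0.60 ± 0.14 in nursed gilts (adjusted p = 0.0414), 0.32 ± 0.14 in replacer-fed gilts (adjusted p = 0.118) and 0.46 ± 0.12 over both (adjusted p = 0.0249).

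The nursed call of CD59 held in 2 of 12 fits that left out a library (without PND0 3 and without PND2R 2), although its change stayed between 0.54 and 0.67. The call over both groups ended without PND0 2 or PND0 4. With the 3 high-DES libraries left out, its change was 0.61 in nursed gilts (adjusted p = 0.0529) and 0.40 over both (adjusted p = 0.0631). CD59 lies on chromosome 2 from 29743795 to 29763410.

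**Figure D3:**
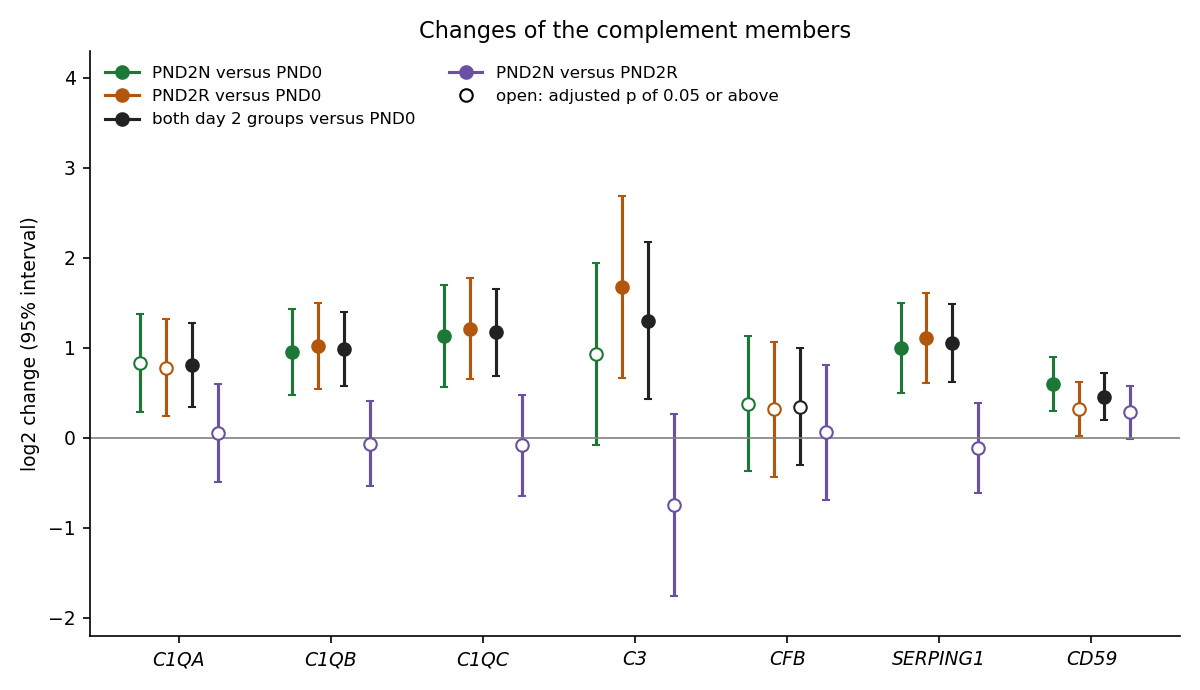
Log2 change of each complement gene in the 4 comparisons, with 95% intervals of the limma fit and filled points for adjusted p under 0.05. Points of the comparison of PND2N with PND2R are open for all 7 genes, and C3 has the widest intervals.

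Between the feeding groups, none of the 7 genes differed by the call rule in limma, and none had an unadjusted p under 0.05 (2.68% of all genes). Of all genes tested 0.0119% were called in that comparison. Values of the 2 groups overlapped for all 7, and among all genes 1.39% lay wholly higher and 1.16% wholly lower in nursed gilts. The difference of nursed minus replacer-fed gilts was 0.05 for C1QA (95% interval -0.49 to 0.59), -0.06 for C1QB (-0.54 to 0.41), -0.08 for C1QC (-0.65 to 0.48) and -0.12 for SERPING1 (-0.62 to 0.38). These intervals reach 0.59 on the side of higher levels in nursed gilts and -0.65 on the other. C3 had the largest difference at -0.75 (-1.76 to 0.26). For CD59 it was 0.28 (-0.02 to 0.58), and the adjusted p was 1.00 for every member. CFB was at 0.06 (-0.69 to 0.81). Without the 3 libraries of high DES the C3 difference turned to 0.13. CD59 passed over birth in nursed gilts only and C3 in replacer-fed gilts only, and neither is shown to differ between the feeding groups.

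The other genes of the complement system changed in both directions. Of 45 such genes listed, 33 had a row, in 35 rows, and 32 rows were tested. The lectin genes MBL1 and MBL2 and the carboxypeptidase subunit gene CPN2 were listed at 1 in all 12 libraries. Over both day 2 groups 3 rows rose and 2 fell, with 16 positive changes (47.2% of all genes were positive) and a median of -0.00. The rises were 3 of 32 rows where 9.57% of all genes rose, and the falls 2 of 32 where 8.49% fell, so neither count stands above the background. Replacer-fed gilts gave 3 rises and 1 fall over birth, where 7.70% of all genes rose and 7.31% fell. Nursed gilts gave no call in limma, with 5 of 32 rows at an unadjusted p under 0.05 (23.9% of all genes). Feeding gave none, with 0 rows at that p (2.68% of all genes). The 4 rows of the classical and alternative pathways outside the members (C2, C4A, CFD and CFP) gave no call in any comparison. With so few rows, this does not show them to be unchanged.

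**Figure D4:**
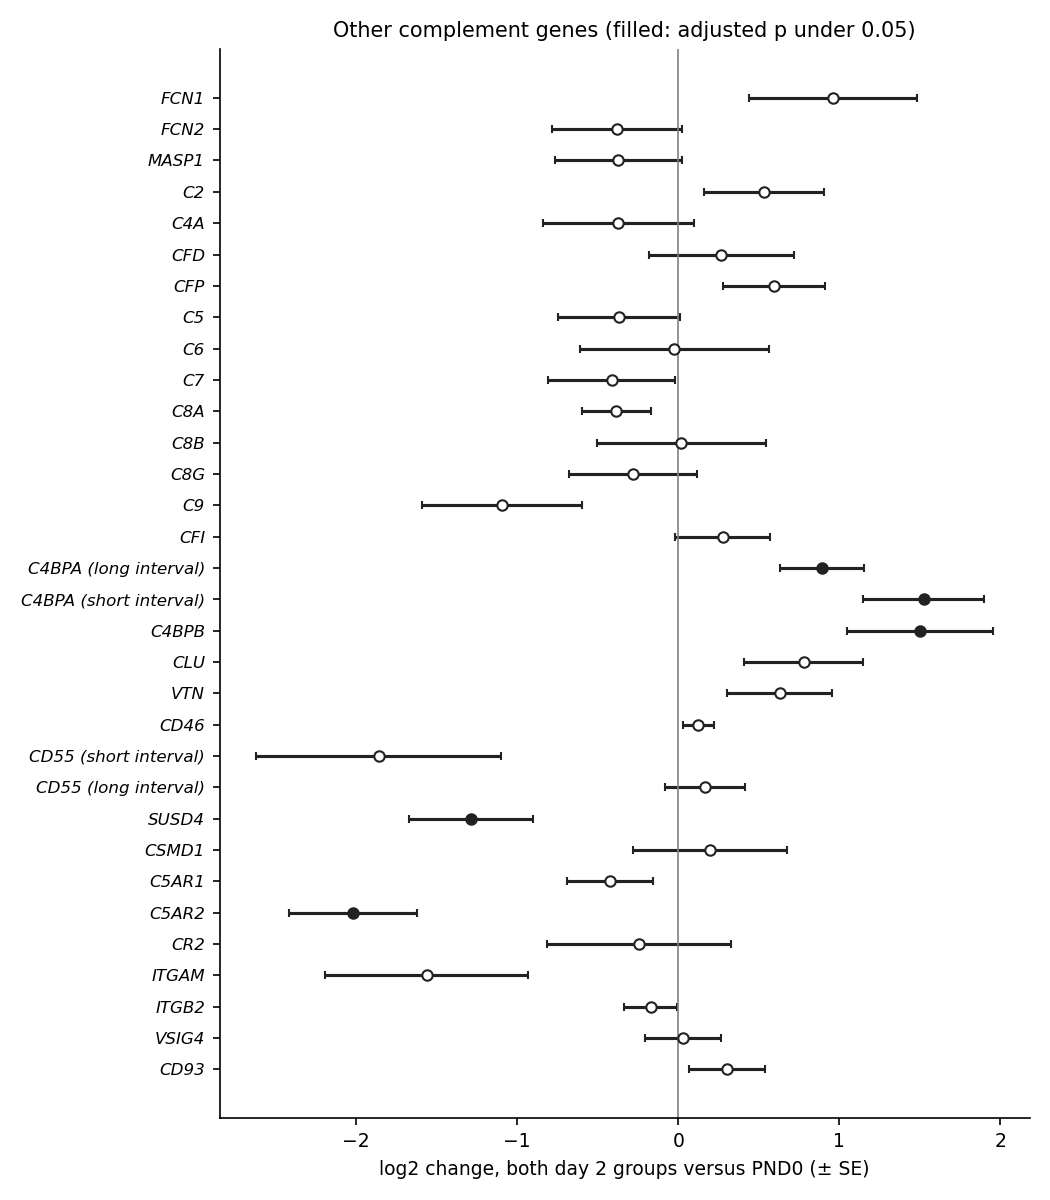
Log2 change ± SE of the 32 tested rows of other complement genes, both day 2 groups versus PND0, with filled points for adjusted p under 0.05. The C4b-binding protein genes lie to the right of 0, and C5AR2 and SUSD4 to the left.

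All 3 rising rows belonged to the C4b-binding protein, a soluble inhibitor of the classical pathway that binds C4b and helps to degrade it. C4BPB, its beta chain, was 30.7, 43.0, 9.88 and 15.02 at birth, 115, 28.6, 34.0 and 62.6 with nursing, and 70.0, 68.8, 102 and 62.1 with replacer. All replacer-fed libraries were above the newborn ones, and 2 nursed libraries were not. Its change was 1.76 ± 0.52 in replacer-fed gilts (adjusted p = 0.0430) and 1.503 ± 0.45 over both (adjusted p = 0.0405).

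C4BPA, the alpha chain, has 2 rows on chromosome 9, and reads could be split between them. The row at 75005833 to 75017829 was 33.7 ± 14.8 at birth, 88.9 ± 39.5 with nursing and 109 ± 37.4 with replacer, with no overlap between newborn and day 2 libraries. It changed by 1.52 ± 0.37 over both (adjusted p = 0.0204) and by 1.41 in the 9 libraries that remain when those of high DES are left out (adjusted p = 0.0485). The row at 74861144 to 74964272 was 269 ± 60.1, 464 ± 175 and 560.4 ± 151 and changed by 0.89 ± 0.26 over both (adjusted p = 0.0370). Without the 3 libraries the latter row and C4BPB did not pass over both (0.62, adjusted p = 0.112; 1.23, adjusted p = 0.112). With a library left out, the pooled calls held in 10 of 12 fits for the former row, in 5 for the latter and in 4 for C4BPB. The liver is the main source of this protein, and the summed level of 5 liver markers was 3213 to 6284 at birth, 3877 to 9981 with nursing and 3290 to 8207 with replacer, nearly all of it the apolipoprotein gene APOA1. None of the 5 was called over both day 2 groups, with 1 at an unadjusted p under 0.05 (37.8% of all genes), ALB was at 8.57 to 77.1 in all libraries, and the part of these markers was not tested.

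The falling genes were a receptor and a membrane regulator. C5AR2, a receptor for the fragment C5a, fell from 146, 54.4, 85.6 and 75.5 at birth to 6.22, 26.7, 24.2 and 16.4 in replacer-fed gilts, without overlap. The nursed values were 19.4, 21.7, 29.8 and 30.7, also below all newborn values. The change was -2.32 ± 0.46 in replacer-fed gilts (adjusted p = 0.0129), -1.73 ± 0.46 in nursed gilts (adjusted p = 0.0609) and -2.02 ± 0.40 over both (adjusted p = 0.00954), and the last was -2.27 without the 3 libraries (adjusted p = 0.0140). The C5AR2 calls held in all 12 fits that left out a library. SUSD4, an inhibitor of C3 convertases, was 89.0 ± 39.5, 36.3 ± 23.7 and 34.8 ± 5.10 and fell over both by 1.29 on the log2 scale (adjusted p = 0.0398), which did not hold without the 3 libraries (adjusted p = 0.119) and held in 3 of 12 fits with a library left out.

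Of the other membrane regulators listed, SUSD4 was called as given above, and CD46, CD55 and CSMD1 gave no call. CD46, a cofactor for the cleavage of C3b and C4b, was 3587 ± 309.9, 3943 ± 245 and 3866 ± 66.5 (adjusted p = 0.345 over both). CD55, which speeds the decay of C3 convertases, has 2 rows. The larger was 2107 ± 946, 2320.1 ± 503 and 2081 ± 137, and the shorter was 279 ± 153, 125 ± 73.4 and 74.8 ± 66.5 with its low values in the 3 libraries of high DES (13.9 to 21.6). Neither passed (adjusted p = 0.641 and adjusted p = 0.0999 over both). These genes were named after their values were seen.

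Outside the complement system, the genes of most similar pattern were sought among 11111 rows with a symbol and a mean of at least 10, by Pearson r of the log2 values over the 12 libraries. For the mean of the C1q chains they were ATP6V1C1, a subunit of the vacuolar proton pump (r = 0.97), TNFAIP8L2, an immune regulator of leukocytes (r = 0.96), and EPHA8 (r = 0.96). For SERPING1 they were ATXN10, MRPS25 and CPNE1 (r = 0.99 each), and for CD59 they were PRCP, a lysosomal carboxypeptidase (r = 0.93), PPP1R36 (r = 0.89) and CPXM2 (r = 0.88). C3 was most like GUSB, the lysosomal glucuronidase, SLC9A7 and VIL1, an actin-bundling protein of epithelial brush borders (r = 0.90, 0.89 and 0.89). CFB was most like CCDC89 (r = 0.94) and SR-PSOX, a scavenger receptor (r = 0.93). Among the members, r was 0.96 to 0.98 between the C1q chains, 0.82 to 0.89 between SERPING1 and each chain, and 0.16 between CFB and CD59. All these r values describe libraries that share the difference between birth and day 2 and carry no test.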

How the data were processed

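Uterine RNA of 12 gilts was sequenced after column isolation and messenger RNA library preparation, per the labels' protocols. The deposited values are a normalized linear signal per gene and library, made by the authors. Per the submitters' processing notes, bcl2fastq was used and coordinates refer to Sscrofa10.2. For the aligner, the counting, its strand setting and the normalization the sources used here give nothing, so no interval from counts was computed. Library columns were matched to samples by library number. Several rows carry placeholder symbols. Of 7 member rows, 1 (C1QB) took its name from the NCBI gene list for Sscrofa11.1, from which no coordinate was used. No sequences are shown for lack of a sequence table.

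Values were taken as log2(value + 1). Genes above 1 in at least 4 libraries were tested, all 12 libraries in 1 fit, with limma 3.58.1 (R 4.3.3, statmod 1.5.0), trended and robust empirical Bayes, two-sided, Benjamini-Hochberg over all genes tested. No covariate was fitted. The fit was tested on simulated data. Summaries used pandas 2.3.3 and numpy 2.4.6 under Python 3.11.15, and plots matplotlib 3.10.9. All members are named, as are other complement genes called in any comparison and the 3 genes of most similar pattern to each profile, of which 1 is not reported here. The labels name no litters, so p-values measure only the spread between these animals. The members, lists and the exclusion of the 3 libraries of high DES were chosen with earlier results of these data known. Alternatives were other added values (0.1, 5), filters (none, 10), TMM (trims 0.3 and 0.05) and quantile scaling, 2-group fits, plain empirical Bayes, library weights and each library left out. After TMM scaling all 20390 rows passed the filter.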

Additional observations from a re-analysis of the deposited data

Results flagged for a closer look

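CD59 in PND2R 2 stood at 8125 while the other replacer-fed libraries were between 5871 and 6049.6. Its gap to the nearest of them was 0.921 of the group's range, above Dixon's 95% critical value for 4 libraries. Without PND2R 2 the change of CD59 from birth to replacer feeding was 0.20. Of the 21 groups of 4 values examined for the 7 genes, this was the only one past that limit, and chance gives about 1 in 20. PND2R 2 is also 1 of the 3 libraries of high DES, and what this library holds was not tested.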

How the results depend on the processing

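Each member was recomputed under other settings in each comparison: of 609 such values 499 kept direction and side of the threshold, 91 lost the call, 4 gained it and 15 changed sign, all of the latter between the feeding groups, where nothing was called. Member calls in nursed gilts (4) became 2 with no filter, 0 with the 2 groups alone, 0 with plain empirical Bayes, 1 without the 3 libraries of high DES and 0 to 3 with a library left out. Rises among all genes in nursed gilts numbered 322 of 16862 in the main fit and 535 of 20390 with no filter. They numbered 1 of 16862 with the 2 groups alone and 240 of 16862 with plain empirical Bayes. Without the 3 libraries they were 126 of 16671, and with a library left out 9 to 374. Member calls in replacer-fed gilts (4) became 0 without the 3 libraries and 0 to 5 with a library left out, and over both groups (6) 3 and 3 to 6. Rises among all genes were 1299 in replacer-fed gilts and 1614 over both, and 117 and 630 without the 3 libraries. With a library left out they were 269 to 1836 and 595 to 1946. Other complement calls in nursed gilts (0) became 1 with log2(value + 5), 2 with library weights and 0 to 1 with a library left out. In replacer-fed gilts (4) they became 2 with no filter, 2 with TMM, 1 without the 3 libraries and 1 to 6 with a library left out, and over both (5) 2 with no filter, 2 without the 3 libraries and 1 to 5. Among all genes, calls in nursed gilts were 560 in the main fit, 627 with log2(value + 5) and 753 with library weights. In replacer-fed gilts they went from 2531 to 2062 with no filter, 2161 with TMM and 284 without the 3 libraries. Over both they went from 3046 to 2472 with no filter and 1419 without the 3 libraries. With a library left out, calls among all genes were 26 to 661, 543 to 4109 and 1014 to 3837 in that order. The TMM fit tested all 20390 rows, as the fit with no filter did, so its scaling and its filter cannot be told apart. The cause of these shifts was not tested.

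Nursed minus replacer-fed differences changed sign with library weights (C1QB 0.029, C1QC 0.044, CFB -0.10) and without the 3 libraries (C1QB 0.12, C1QC 0.19, C3 0.13, SERPING1 0.075). With a library left out they ran from -0.14 to 0.17 for C1QA, -0.19 to 0.028 for C1QB, -0.21 to 0.039 for C1QC, -0.16 to 0.22 for CFB and -0.27 to 0.056 for SERPING1. The exclusion of the 3 libraries was chosen after seeing the data and leaves 3 nursed and 2 replacer-fed libraries. Read depth is unknown. The pooled comparison has no fit of 2 groups alone. Planned ratios of SERPING1 to C1R and C1S are not analysed here. No paired analysis was possible because the labels' numbers name libraries and pair no animals across groups.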
